A study of Mus musculus with 15 samples.

Results

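Expression of 8 genes that mark mouse embryonic stem cells (ESC) and the germ line, namely Dppa2, Dppa3, Dppa4, Dppa5a, Tdgf1, Utf1, Gdf3 and Fbxo15, was followed by RNA-seq after loss and re-expression of Hmga1. These markers are largely restricted to pluripotent cells and germ cells but are not among the core pluripotency factors, and they were taken by gene symbol from the 21662 genes of the count tables. Dppa2, Dppa3, Dppa4 and Dppa5a share a name, developmental pluripotency associated, and not a common protein fold. Hmga1 and Hmga2 are abundant chromatin proteins that contact DNA rich in A or T bases through AT-hooks.

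RNA came from 15 samples in 2 experiments. The KO experiment held 9 samples: WT (3, called a, b and c), Hmga1 KO (2, a and b), the Hmga1 add-back (2, a and b) and the Hmga2 add-back (2, a and b). In the KO line Cas9 cutting damaged an exon-intron junction of Hmga1 and shifted its reading frame. The add-backs were KO cells carrying a biotin-tagged Hmga1 or Hmga2 cDNA behind the strong ubiquitous CAG promoter, inserted with Cre recombinase. The full-deletion experiment held 3 samples of WT and 3 of a line whose Hmga1 coding sequence had been excised. All lines go back to 159 ESC of mixed 129Sv-C57Bl/6 background that express the BirA biotin ligase, and all were kept in serum with LIF. Each genotype was 1 cell line, so that a difference between genotypes cannot be told apart from a difference between clones, and p-values measure the spread between cultures of a line. In the KO experiment the letters are batches of library preparation and sequencing, and batch was a term of the model.

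Dppa2 and Dppa4 are SAP-domain proteins that act together on chromatin in pluripotent cells. Dppa3, also called Stella, marks primordial germ cells and guards the maternal genome of the zygote against loss of DNA methylation. Dppa5a is an RNA-binding KH-domain protein, and Utf1 is a chromatin-bound factor of undifferentiated cells. Gdf3 is a ligand of the TGF-beta family, and Tdgf1, also called Cripto, is the membrane-anchored co-receptor through which Nodal-type ligands signal. Fbxo15 is an F-box protein, the kind that brings substrates to SCF ubiquitin ligases, and it has long served as a reporter of pluripotency.

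Several of the markers have processed copies in the genome, which matters because a read with more than 1 equally good alignment was placed at 1 of them at random. Of all windows of 47 bases within annotated exons, the read length after trimming, 63.2% in Dppa5a had an exact copy elsewhere in NCBIM37, and the share was 51.9% in Dppa4, 50.6% in Dppa2, 29.8% in Dppa3 and 26.0% in Tdgf1. The share was 2.90% in Gdf3, where the copied stretch is a dispersed repeat, and 0% in Utf1 and Fbxo15. Levels of the first 5 genes may therefore be split with or drawn from copies, and are uncertain to that extent.

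The stretches below show how close the copies are, each a coding part of an exon above a near-identical copy, printed 5′ to 3′ on the strand of the gene from NCBIM37, with the differing bases in capitals. The Dppa2 stretch differs from its copy, annotated as the pseudogene Gm9788, at 1 of 256 bases.
Dppa2 (chr16:48315775-48316030, plus strand): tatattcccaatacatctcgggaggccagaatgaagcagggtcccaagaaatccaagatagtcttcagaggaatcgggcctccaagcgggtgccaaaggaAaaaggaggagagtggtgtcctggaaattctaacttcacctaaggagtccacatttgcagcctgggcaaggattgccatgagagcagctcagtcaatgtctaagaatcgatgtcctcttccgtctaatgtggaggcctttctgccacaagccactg
Dppa2 copy (chr19:41534678-41534933, plus strand): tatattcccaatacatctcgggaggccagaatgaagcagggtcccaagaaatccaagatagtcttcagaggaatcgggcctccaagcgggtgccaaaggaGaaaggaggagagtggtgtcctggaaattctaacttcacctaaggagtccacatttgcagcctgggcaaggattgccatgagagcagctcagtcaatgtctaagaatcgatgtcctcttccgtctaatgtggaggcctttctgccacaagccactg
The Dppa3 stretch differs from its copy on the X chromosome, where the pseudogenes Rhox3g-ps and Gm6269 are annotated, at 5 of 233 bases.
Dppa3 (chr6:122578595-122578827, plus strand): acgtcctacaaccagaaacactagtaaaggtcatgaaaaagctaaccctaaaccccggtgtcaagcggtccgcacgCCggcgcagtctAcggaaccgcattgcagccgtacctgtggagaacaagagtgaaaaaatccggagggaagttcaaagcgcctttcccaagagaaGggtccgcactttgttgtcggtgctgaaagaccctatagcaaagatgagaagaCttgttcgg
Dppa3 copy (chrX:35040286-35040518, minus strand): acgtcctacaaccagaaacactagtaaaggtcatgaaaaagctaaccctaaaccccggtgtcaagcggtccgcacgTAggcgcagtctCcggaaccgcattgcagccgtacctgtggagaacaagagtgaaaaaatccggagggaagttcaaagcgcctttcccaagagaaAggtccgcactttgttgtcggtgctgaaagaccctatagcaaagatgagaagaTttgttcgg
The Dppa5a stretch differs from its copy, the pseudogene Gm6798, at 3 of 115 bases.
Dppa5a (chr9:78215792-78215906, minus strand): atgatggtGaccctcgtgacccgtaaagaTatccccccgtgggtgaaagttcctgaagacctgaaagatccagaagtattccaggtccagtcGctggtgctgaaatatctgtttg
Dppa5a copy (chrX:8231591-8231705, plus strand): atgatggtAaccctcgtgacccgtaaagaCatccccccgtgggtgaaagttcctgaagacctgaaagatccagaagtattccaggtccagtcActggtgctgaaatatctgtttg
The Tdgf1 stretch differs at 1 of 115 bases from a copy with no annotated gene.
Tdgf1 (chr9:110845034-110845148, minus strand): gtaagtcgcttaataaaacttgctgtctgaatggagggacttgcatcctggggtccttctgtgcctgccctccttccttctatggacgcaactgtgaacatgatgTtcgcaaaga
Tdgf1 copy (chr16:3730685-3730799, plus strand): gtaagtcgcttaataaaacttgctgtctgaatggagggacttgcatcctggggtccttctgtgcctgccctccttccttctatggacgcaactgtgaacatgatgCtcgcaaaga

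**Figure D1:**
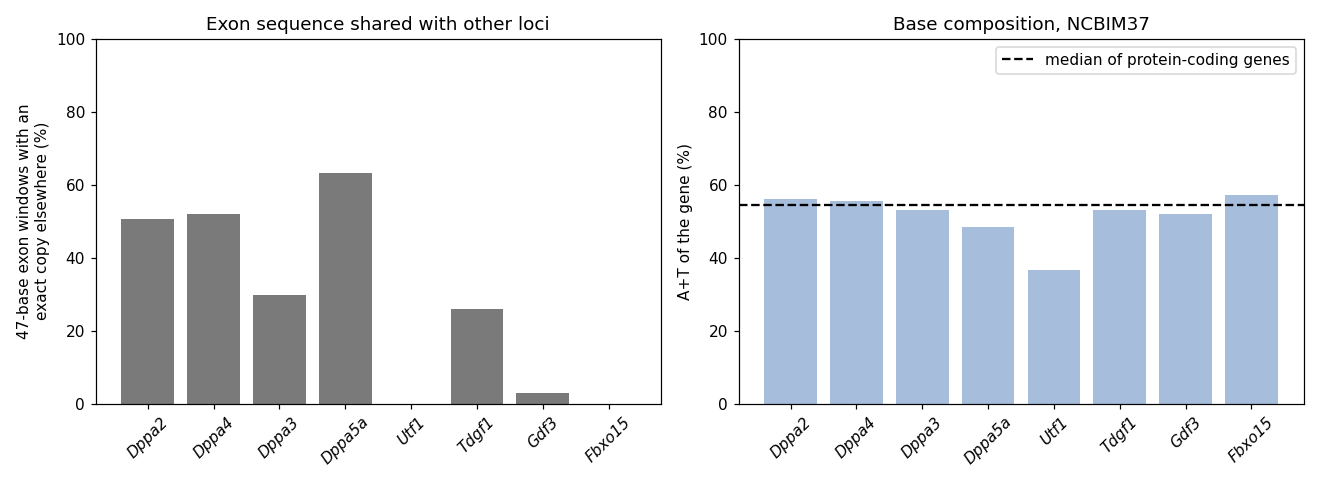
Left, share of 47-base windows of the annotated exons of each marker that have an exact copy elsewhere in the genome (bars, percent). Right, share of A and T bases over the whole gene (bars, percent) with the median of annotated protein-coding genes as a dashed line. Dppa5a has the highest share of copied windows at 63.2%, and Utf1 has the lowest share of A and T of the 8 markers at 36.6%.

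The 8 markers lie at 6 places in the genome. Dppa4 (chr16:48283848-48294405, plus strand) lies 16185 bases from Dppa2 (chr16:48310590-48319836, plus strand). Gdf3 (chr6:122555421-122560105, minus strand) lies 16323 bases from Dppa3 (chr6:122576428-122580290, plus strand), and Nanog lies 77217 bases from Dppa3. Dppa5a (chr9:78214859-78215984, minus strand) and Tdgf1 (chr9:110842114-110848662, minus strand) lie far apart on 1 chromosome. Utf1 (chr7:147129688-147131011, plus strand) and Fbxo15 (chr18:85104550-85150768, plus strand) have no marker beside them. A and T bases made up 36.6% of Utf1, with 0.4% of 18533 protein-coding genes lower, and between 48.5% and 57.1% of the other markers, around the gene median of 54.4%.

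Counts on genes summed to between 13465399 and 34952136 a sample in the KO experiment and between 14832310 and 21708492 in the full-deletion experiment. Levels are given as CPM, counts per 1000000 counts of the sample after scaling with edgeR's TMM method. Hmga1 was at 464, 276 and 220 CPM in WT a, b and c against 217 and 96.0 in KO a and b, and fell from between 310 and 356 CPM in WT of the deletion experiment to between 10.9 and 12.3 CPM in the full deletion. It was at 184 and 123 CPM in the Hmga1 add-back, so that its counts do not tell the samples labelled Hmga1 add-back from the KO. Protein is another measure: by Western blot the study found no Hmga1 in the KO and about the WT level in the Hmga1 add-back. The study also reports a shortened Hmga1 transcript in the KO. Hmga2 was at 249 and 222 CPM in the Hmga2 add-back and at most 23.8 CPM in all other samples. The 7 ESC markers Pou5f1, Sox2, Nanog, Zfp42, Esrrb, Sall4 and Lin28a were present in every sample and summed to between 3851 and 6568 CPM. Markers of feeder fibroblasts summed to between 3.80 and 14.3 CPM, highest in the add-back samples of batch a (13.4 and 14.3), where Thy1 made up 10.9 and 11.7 CPM. Col1a1, Thy1 and Acta2 had counts in all 15 samples, while Col1a2 was at 0 in 2 samples, Col3a1 in 11, Lum in 13 and Postn and Dcn in 14. The 9 differentiation markers summed to between 35.3 and 47.6 CPM in WT of the KO experiment and between 15.7 and 27.6 CPM in the other 12 samples. Their part in the results was not tested. WT b of the deletion experiment stood apart from the other 5 samples, with 8.78% of its counts in its 10 most abundant genes (4.67% to 5.38% in the others) and a TMM factor of 0.752.

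All 8 markers were detected in all 15 samples and passed the filter of a mean count of at least 10 in both experiments. On the scale of RPKM, which divides CPM by exon length in kilobases, the mean level in WT of the KO experiment was highest for Dppa5a (759 ± 211, SD, n = 3) and Tdgf1 (510 ± 122, SD, n = 3), and their sample ranges overlapped. Fbxo15 (101 ± 12.5), Dppa4 (80.4 ± 12.7), Utf1 (70.7 ± 29.8) and Dppa2 (64.0 ± 3.60) followed. Dppa4, Utf1 and Dppa2 did not differ beyond the spread of Utf1. Gdf3 came next (35.5 ± 11.4), and Dppa3 was lowest by far (4.72 ± 2.82 RPKM). In WT of the deletion experiment the order differed: Tdgf1 was highest (514 ± 165 RPKM), then Dppa5a (144 ± 64.0), then Dppa2 (101 ± 3.02). Since the 2 tables were scaled separately, levels across them are set side by side without a test: Dppa5a was at 485 CPM in WT of the KO experiment and 92.0 CPM in WT of the deletion experiment, Gdf3 at 74.8 and 32.2 CPM, and Dppa2 at 124 and 196 CPM. In bulk RNA fewer cells expressing a marker and less of its RNA per cell cannot be told apart.

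**Figure D2:**
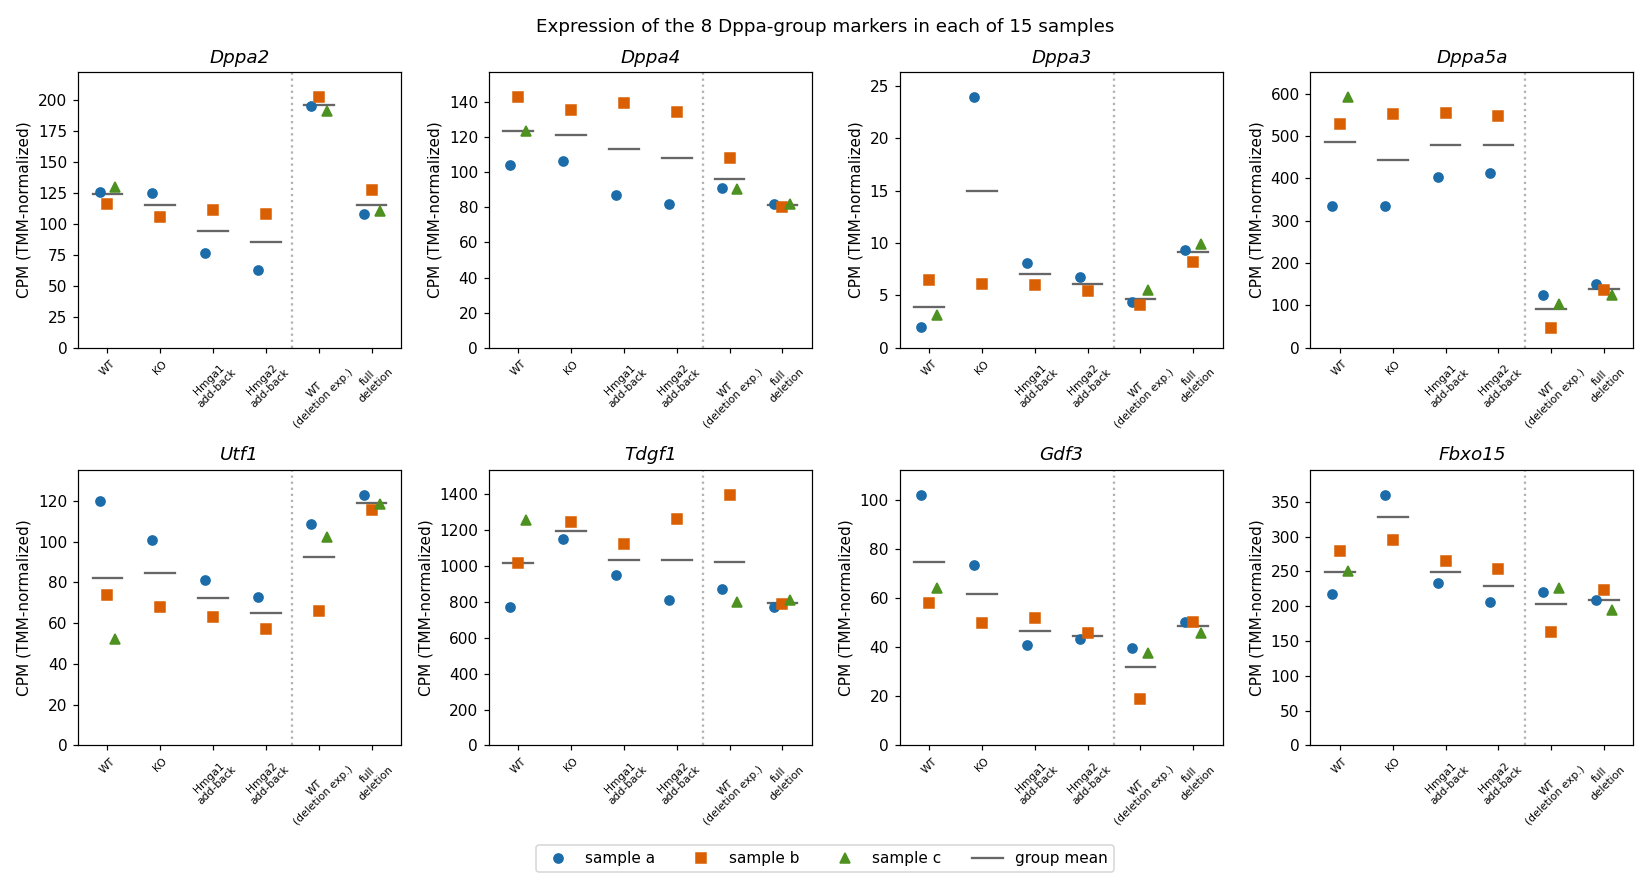
Level of each of the 8 markers in CPM (vertical axis, from 0) in every sample of the 6 groups; points are samples, coded by letter, lines are group means, and the dotted line parts the 2 experiments. Dppa2, Dppa3, Dppa4, Dppa5a, Utf1 and Gdf3 show no overlap between WT and the full deletion, where 51.3% of all genes tested show none. The KO a sample stands out for Dppa3 at 23.9 CPM.

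The first question was which markers changed in the KO. A gene counts as called where edgeR's quasi-likelihood test gave an adjusted p below 0.01 with at least a 2-fold change. None of the 8 met this in the KO against WT, where 0.0216% of 13912 genes were called, and DESeq2 and limma-trend also called 0. At an unadjusted p under 0.05 there were 3 markers, Dppa3, Tdgf1 and Fbxo15, all higher in the KO, against 12.6% of all genes. The other 5 had log2 fold changes between -0.36 and 0.03. The median over the markers was 0.0068, and that of all genes tested was -0.0082.

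Dppa3, the germ-line and zygote factor, varied most. It was at 1.99, 6.44 and 3.15 CPM in WT a, b and c, at 23.9 and 6.08 CPM in KO a and b, at 8.09 and 5.995 CPM in the Hmga1 add-back and at 6.72 and 5.42 CPM in the Hmga2 add-back. Only KO a lies clearly above the rest, and KO b lies inside the range of WT. The log2 fold change of the KO against WT was 1.83 (SE 0.69, Benjamini-Hochberg adjusted p = 0.353, edgeR). Within batch a, Dppa3 was 12.01-fold higher in KO than in WT (853 against 63 counts, 95% exact interval 9.29 to 15.8, counting error only). Within batch b the ratio was 0.944 (80 against 83 counts, interval 0.686 to 1.30). The add-backs likewise exceeded WT in batch a, 4.07-fold for Hmga1 and 3.38-fold for Hmga2, and not in batch b, at 0.931-fold and 0.842-fold. WT a itself was at 0.309 of WT b. The residual SD of Dppa3 in the KO experiment, 1.05 on the log2 scale, was higher than that of 99.3% of the genes tested, and the fold change rested on single samples: it was 0.52 on the log2 scale without KO a, 2.76 without KO b, 0.60 without WT a and 3.21 without WT b (adjusted p = 0.0177 from edgeR for the last).

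Tdgf1, the Nodal co-receptor, was at 770, 1018 and 1255 CPM in WT and at 1152 and 1243 CPM in the KO. KO a and b lie within the range of WT, but each exceeds WT of its own batch, 1.496-fold in batch a and 1.22-fold in batch b. It had a log2 fold change of 0.44 (SE 0.14, adjusted p = 0.294 from edgeR with Benjamini-Hochberg adjustment), 0.24 without the batch term and 0.28 without KO a. Fbxo15, the F-box protein, was at 218, 279 and 250 CPM in WT and at 360 and 296 CPM in the KO, with no overlap. The share of all genes without overlap was not computed for the comparisons of the KO experiment. Its log2 fold change was 0.42 (SE 0.16, adjusted p = 0.349 from edgeR), with a ratio of 1.66 in batch a and 1.06 in batch b. Without KO a it was 0.13, and without KO b 0.69.

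The chromatin partners Dppa2 and Dppa4 were among the markers with an unadjusted p above 0.05 in the KO. Dppa2 was at 126, 117 and 130 CPM in WT and 125 and 105 CPM in the KO. Dppa4 was at 104, 143 and 123 CPM in WT and 106 and 136 CPM in the KO. Dppa5a was at 334, 529 and 592 CPM in WT and 334 and 552 CPM in the KO. In each of these 3 genes the ranges of the groups overlap, and for Dppa4 and Dppa5a the KO repeats the low batch a and the high batch b of WT.

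Against WT the add-backs had lower Utf1 and Gdf3, without passing the call threshold. In the Hmga1 add-back 0 of 8 markers were called by edgeR, DESeq2 or limma-trend (0.0144% of all genes by edgeR) and 2 had an unadjusted p under 0.05 (13.3% of all genes). In the Hmga2 add-back 0 were called by the same 3 tools (0.0647%) and 3 had an unadjusted p under 0.05 (16.9%). These comparisons and that of the KO share the WT samples.

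Utf1 was at 120, 73.6 and 52.4 CPM in WT, 101 and 67.9 in the KO, 81.3 and 62.8 in the Hmga1 add-back and 72.7 and 57.1 in the Hmga2 add-back. In both batches the order was WT, KO, Hmga1 add-back, Hmga2 add-back, from high to low, although the ranges of all 4 groups overlap. Its log2 fold change against WT was -0.40 in the Hmga1 add-back (SE 0.12, adjusted p = 0.267) and -0.55 in the Hmga2 add-back (SE 0.12, adjusted p = 0.122), both from edgeR. Gdf3, the ligand, was at 102, 58.1 and 64.1 CPM in WT, 73.8 and 50.1 in the KO, 41.1 and 51.9 in the Hmga1 add-back and 43.4 and 46.0 in the Hmga2 add-back. The add-back samples all lie below the WT samples, though the share of all genes so separated was not computed. Its log2 fold change against WT was -0.76 in the Hmga1 add-back (SE 0.25, adjusted p = 0.297) and -0.82 in the Hmga2 add-back (SE 0.25, adjusted p = 0.195), both from edgeR. The ratio to WT was 0.402 and 0.425 in batch a and 0.893 and 0.791 in batch b. Leaving out single samples moved the log2 fold change of Gdf3 with Hmga1 added back from -0.35 without WT a to -1.14 without sample b of that add-back, and with Hmga2 from -0.39 without WT a to -1.17 without WT b. For Utf1 it was -0.26 with Hmga1 added back without WT a. Without the batch term Utf1 was at -0.19 with Hmga1 and -0.34 with Hmga2.

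Dppa2 was at 76.4 and 112 CPM in the Hmga1 add-back and at 62.8 and 108 CPM in the Hmga2 add-back, with a log2 fold change against WT of -0.55 in the latter (SE 0.24, adjusted p = 0.292 from edgeR). The low values were both from batch a, where Dppa2 was at 60.6% and 49.8% of WT, against 95.8% and 92.9% in batch b. The markers above an unadjusted p of 0.05, Dppa2 among them with Hmga1 added back, had log2 fold changes between -0.40 and 0.78 with Hmga1 and between -0.22 and 0.56 with Hmga2, the largest of each being that of Dppa3. Without the batch a sample of the Hmga2 add-back the log2 fold change of Dppa2 was -0.19 and without that of batch b -0.92, and it was -0.29 without WT a.

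Whether the added cDNAs moved the markers away from the KO was tested next. Against the KO, 0 of 8 markers were called in either add-back by edgeR, DESeq2 or limma-trend (by edgeR 0% of all genes with Hmga1 added back, 0.00719% with Hmga2). An unadjusted p under 0.05 was reached by 1 marker in the Hmga1 add-back (2.80% of all genes) and 2 in the Hmga2 add-back (5.09%). Fbxo15 was at 233 and 265 CPM in the Hmga1 add-back and 206 and 253 CPM in the Hmga2 add-back, below both KO samples and at the level of WT. Its log2 fold change against the KO was -0.41 in the Hmga1 add-back (SE 0.16, adjusted p = 1) and -0.53 in the Hmga2 add-back (SE 0.16, adjusted p = 0.877), both from edgeR. KO a carried the larger gap: the ratio of Fbxo15 to the KO was 0.646 and 0.571 in batch a and 0.894 and 0.856 in batch b. Without KO a the log2 fold changes were -0.13 and -0.23, and without KO b -0.68 and -0.80. Utf1 had a log2 fold change of -0.36 in the Hmga2 add-back against the KO (SE 0.12, adjusted p = 0.877 from edgeR). The other markers lay between -1.05 and 0.14 in the Hmga1 add-back and between -1.26 and 0.15 in the Hmga2 add-back, Dppa3 being lowest and Dppa5a the 1 marker above 0 in both.

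**Figure D3:**
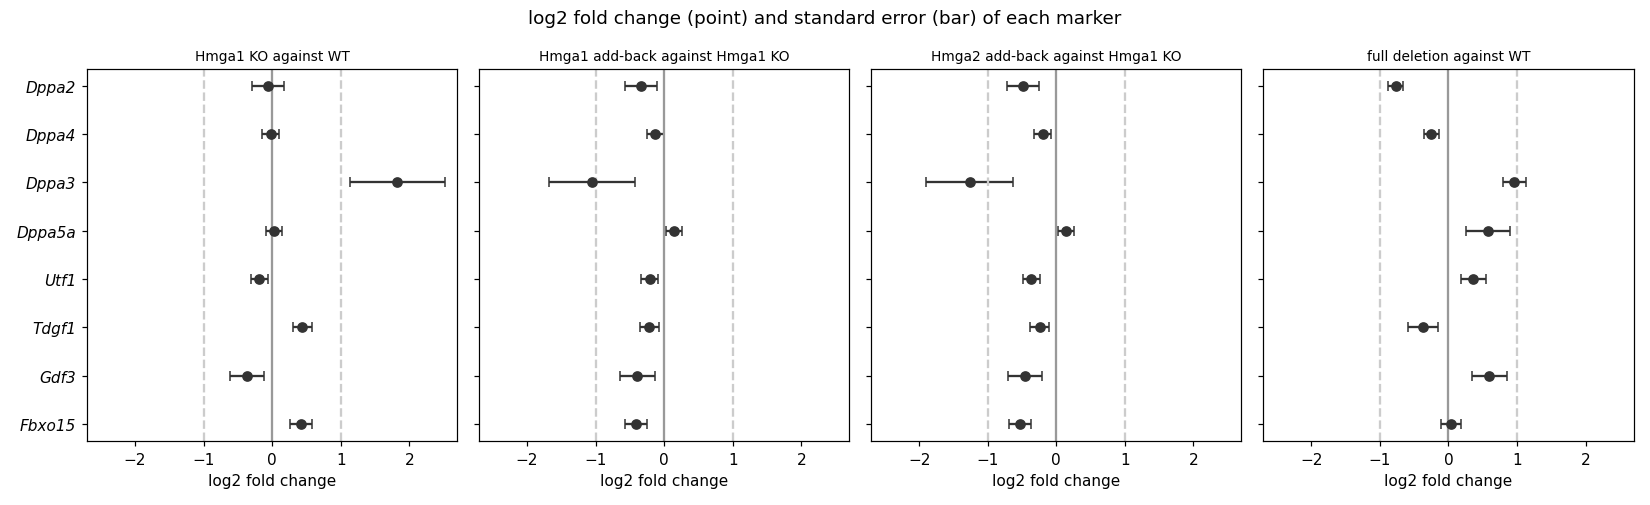
log2 fold change from edgeR (points) and its standard error derived from edgeR's F statistic (bars) of each marker in 4 comparisons. The solid line marks no change and the dashed lines a 2-fold change. Dppa3 has the widest bar in the KO (1.83, SE 0.69), while in the full deletion Dppa2 (-0.77) and Dppa3 (0.96) lie far from 0 for their standard errors and inside the 2-fold lines.

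In the full deletion Dppa2 was lower and Dppa3 higher than in WT, by less than 2-fold with TMM scaling. With plain summed counts as library size, which moved the median of all genes from 0.04 to 0.32, the log2 fold change of Dppa2 shrank from -0.77 to -0.48 and that of Dppa3 grew from 0.96 to 1.24, past 2-fold. None of the 8 markers was called by edgeR (0.0687% of 13098 genes), DESeq2 or limma-trend. An unadjusted p under 0.05 was reached by 4 of 8, against 37.0% of all genes, so that the share among the markers is near that of all genes. The median log2 fold change was 0.20 over the markers and 0.04 over all genes. The sample ranges of WT and full deletion did not overlap for 6 of 8 markers, where 51.3% of all genes did not overlap.

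Dppa2 was at 195, 203 and 191 CPM in WT and at 108, 127 and 110 CPM in the full deletion. All 3 deletion samples lie well below all WT samples. The log2 fold change was -0.77 (SE 0.11, Benjamini-Hochberg adjusted p = 0.0202, edgeR), and 0.58% of genes had a smaller p. Without WT b it was -0.74 (adjusted p = 7.5e-08 from edgeR). Without full deletion c the adjusted p was 0.147 from edgeR.

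Dppa4, the partner and neighbour of Dppa2, was at 91.0, 108 and 90.1 CPM in WT and at 81.8, 79.9 and 81.9 CPM in the full deletion. The groups do not overlap, but the gap is small beside that of Dppa2. Its log2 fold change was -0.25 (SE 0.11, adjusted p = 0.134 from edgeR), and it turned to 0.0517 with summed counts as library size.

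Dppa3 was at 4.36, 4.10 and 5.54 CPM in WT (67 to 115 counts) and at 9.31, 8.16 and 9.95 CPM in the full deletion (154 to 219 counts). Every deletion sample lies above every WT sample. The log2 fold change was 0.96 (SE 0.17, adjusted p = 0.0293 from edgeR), 0.88 without WT b (adjusted p = 1.81e-04 from edgeR), and the adjusted p without full deletion c was 0.160.

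Gdf3, which neighbours Dppa3, was at 39.9, 19.05 and 37.6 CPM in WT and at 50.5, 50.2 and 45.7 CPM in the full deletion. Its log2 fold change was 0.60 (SE 0.25, adjusted p = 0.134 from edgeR). WT b was lowest, and without WT b it was 0.33 (adjusted p = 0.00136 from edgeR). The remaining 4 markers had log2 fold changes between -0.37 and 0.58, and without WT b Tdgf1 lay at -0.07, Fbxo15 at -0.10, Utf1 at 0.17 (adjusted p = 0.0244 from edgeR) and Dppa5a at 0.26 (adjusted p = 0.0116 from edgeR). Small p-values were common among all genes in the fit without WT b. There 6565 of 13163 genes and 6 of 8 markers had an unadjusted p under 0.05 by edgeR, against 4843 of 13098 genes with all libraries.

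WT b of the deletion experiment set much of the spread of those 4 markers. Dppa5a was at 125, 46.3 and 105 CPM in WT and at 152, 137 and 126 CPM in the full deletion. Utf1 was at 109, 66.0 and 102 CPM in WT and at 123, 116 and 119 CPM in the full deletion. Tdgf1 was at 870, 1398 and 798 CPM in WT and at 774, 791 and 810 CPM in the full deletion. In each of the 3 genes WT b departs from WT a and c, which lie close to each other. WT b was at 0.403 of the mean of WT a and c for Dppa5a, 0.491 for Gdf3, 0.625 for Utf1 and 0.733 for Fbxo15, and 1.68-fold higher for Tdgf1. For Dppa2 (1.05), Dppa3 (0.829) and Dppa4 (1.19) it departed less. Fbxo15 was at 221, 164 and 226 CPM in WT and at 208, 224 and 194 CPM in the full deletion, which overlap.

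Whether the full deletion and the KO differ in their effects was tested as an interaction term over all 15 samples. For 0 of 8 markers was the difference called by edgeR, DESeq2 or limma-trend (0.0951% of 13671 genes by edgeR), and 4 had an unadjusted p under 0.05, against 18.4% of all genes. With the adjusted p relaxed to below 0.05 at 2-fold, 0 markers and 0.300% of all genes passed in edgeR. The difference, deletion effect minus KO effect, was -0.72 for Dppa2 (SE 0.28, adjusted p = 0.244) and -0.83 for Tdgf1 (SE 0.31, adjusted p = 0.240), both from edgeR. It was 0.54 for Utf1 (SE 0.25, adjusted p = 0.270) and 0.95 for Gdf3 (SE 0.40, adjusted p = 0.255), both from edgeR. Without WT b of the deletion experiment that of Tdgf1 was -0.55 (adjusted p = 0.0479 from edgeR). That of Dppa2 ran from -0.34 without KO a to -1.01 without KO b, that of Gdf3 from 0.51 without WT a of the KO experiment to 1.30 without WT b of the KO experiment, and that of Utf1 was 0.33 without WT b of the deletion experiment. With summed counts as library size Dppa2 was at -0.42 and Tdgf1 at -0.49, and with no batch term Utf1 was at 0.32. The other 4 lay between -0.88 and 0.55, the lowest being Dppa3.

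The batches moved some markers alike in all 4 genotypes of the KO experiment. Batch a was below batch b in each genotype for Dppa4 (ratios of 0.610 to 0.785), Dppa5a (0.605 to 0.753) and Tdgf1 (0.641 to 0.927), and above it for Utf1 (1.27 to 1.63). These 4 genes keep one direction. For Dppa2, Dppa3, Gdf3 and Fbxo15 the direction depended on the genotype, and the ratios for Dppa3 ran from 0.309 in WT to 3.94 in the KO. With the batch term, the residual SD on the log2 scale was 0.12 for Dppa4, 0.11 for Dppa5a and 0.12 for Utf1, below the median over genes of 0.18, and 0.36 for Dppa2 and 0.38 for Gdf3.

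**Figure D4:**
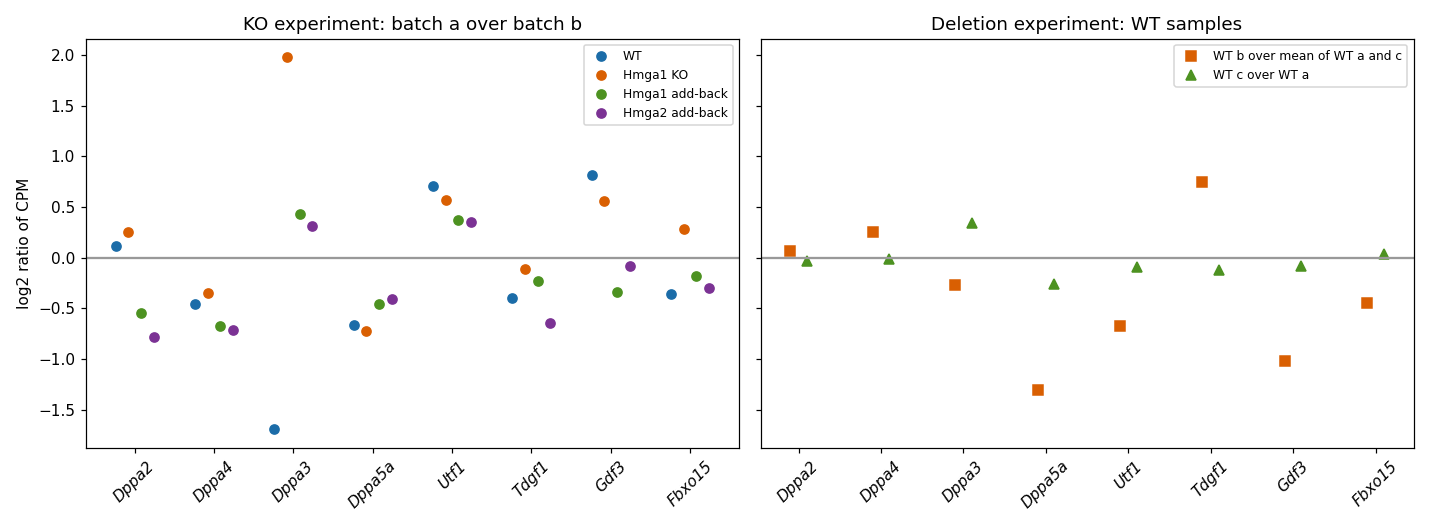
Left, log2 ratio of the CPM of batch a to that of batch b in each of the 4 genotypes of the KO experiment. Right, log2 ratio of WT b to the mean of WT a and c (squares) and of WT c to WT a (triangles) in the deletion experiment; Dppa4, Dppa5a, Tdgf1 and Utf1 keep one direction across the 4 genotypes, and WT b is lowest for Dppa5a at 0.403 of the mean of WT a and c.

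Over the 15 samples, each experiment centred on its own mean, log2 CPM of Utf1 and Gdf3 had a Pearson r of 0.76, Tdgf1 and Utf1 of -0.77, Dppa4 and Tdgf1 of 0.70, and Dppa2 and Dppa4 of 0.68. The points share batches and the departure of WT b, and the values are a description. Among 10102 genes with a mean of at least 5 CPM, the genes most like each marker over these samples were Gm15645 (r = 0.96) and Trim28 (0.95) for Dppa2, Zfp975 (0.98) and Trip12 (0.98) for Dppa4, and Mreg (0.88) and Spire1 (0.86) for Dppa3. They were Rpl35a (0.97) and Mtx2 (0.96) for Dppa5a, Cops7b (0.97) and Raver1 (0.96) for Utf1, Ctnnbl1 (0.95) and Ccdc191 (0.94) for Tdgf1, Nob1 (0.94) and Cog8 (0.94) for Gdf3, and Rpa1 (0.91) and Upp1 (0.86) for Fbxo15. The highest r was lowest for Dppa3, the marker with the fewest counts.

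Genes that work with the markers were read in the same fits, with passing set at 2-fold and an adjusted p below 0.05 by edgeR. In the 5 comparisons of the KO experiment 0 genes of these lists passed, where the share of all genes was 0.0647% in the KO, 0.0431% and 0.151% in the Hmga1 and Hmga2 add-backs against WT, and 0% and 0.0144% against the KO. In the full deletion 2.77% of all genes passed. Of the Nodal pathway, in which Gdf3 and Tdgf1 act, 1 of 13 genes tested passed in the full deletion: Lefty1, an inhibitor of Nodal, was higher by 1.05 on the log2 scale (SE 0.23, adjusted p = 0.0400 from edgeR), and the median of the list was 0.38. Without WT b Lefty1 no longer reached the 2-fold change, at 0.82, and the list median was 0.32. Of the DNA methylation enzymes with Uhrf1, a partner of Dppa3, 1 of 7 passed: Tet2, which oxidizes methylated cytosine, had a log2 fold change of -1.0048 (SE 0.21, adjusted p = 0.0366 from edgeR), -0.74 without WT b. The list median was -0.43, and -0.23 without WT b.

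Of the genes activated by Dppa2 and Dppa4, the Zscan4 and Tcstv genes of the 2-cell embryo, 1 of 8 tested passed in the full deletion, Zscan4a, with a log2 fold change of -1.23 (SE 0.25, adjusted p = 0.0358 from edgeR). In the KO all 8 were higher at an unadjusted p under 0.05 (6.99% of all genes), with a median log2 fold change of 4.01 and 0 past the threshold. Their mean levels were low in WT of that experiment, from 0.0713 CPM for Tcstv3 to 1.13 CPM for Zscan4f. In the KO they ran from 1.55 CPM for Tcstv3 to 19.8 CPM for Zscan4c. Against the same WT samples 8 of 8 were higher with Hmga1 added back (7.91% of all genes, median 3.48) and 7 of 8 with Hmga2 (9.45%, median 2.34). The Zscan4 genes are near-identical copies of each other, so that their counts are not independent. Of the oocyte KH-domain relatives of Dppa5a, 1 of 2 tested passed in the full deletion, Khdc3, at -1.31 (SE 0.21, adjusted p = 0.0250 from edgeR). Of 7 other ESC-associated transcripts 1 passed, L1td1, an RNA-binding protein, at -1.14 (SE 0.27, adjusted p = 0.0478 from edgeR), -0.76 without WT b. Of the 3 SCF core subunits with which Fbxo15 would act 0 passed, with a median of -0.51 (-0.41 without WT b). Of the 7 ESC markers 0 passed, with a median of -0.15 (-0.03 without WT b). Of the feeder and differentiation markers 0 of 2 and 0 of 4 tested passed, with medians of 0.55 and 0.39 (0.40 and 0.20 without WT b). In the KO experiment most of the differentiation markers tested went the other way. In the KO 4 of 6 were lower at an unadjusted p under 0.05 by edgeR, which 12.6% of all genes reached in either direction. Against WT the medians were -1.64 in the KO, -0.82 with Hmga1 and -1.59 with Hmga2 added back. Eomes was higher in each, at 0.24, 0.66 and 0.94 on the log2 scale. The feeder markers had medians of 0.64, 0.92 and 0.63 over 3 tested in the same comparisons.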

How the data were processed

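Stranded libraries from ribosome-depleted total RNA of 15 samples were read as 50-base single ends. The authors removed the first 3 bases, aligned reads to mm9 (NCBIM37) with QuasR and bowtie, placed multi-mapping reads at 1 random alignment, and deposited raw counts per UCSC known gene, same strand only, with exon length. Versions of the aligner are not given in the sources used here.

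Where the mean count reached 10, a gene entered edgeR's quasi-likelihood fit (version 4.0.16, R 4.3.3; TMM, Benjamini-Hochberg adjustment over all genes tested, 13912 in the KO experiment, 13098 in the deletion experiment and 13671 in the joint fit), and calls needed an adjusted p below 0.01 with a 2-fold change. Batch was a term in the KO experiment only, where the log2 difference between samples a and b correlated between genotypes at an r of 0.319 to 0.758 across genes. The SE of a log2 fold change is its absolute value divided by the square root of edgeR's quasi-likelihood F statistic. Correlations used log2 CPM with a prior count of 2. Alternatives were other scalings, filters, thresholds, sample sets and batch terms, DESeq2 1.42.0 and limma-trend (limma 3.58.1). Scripts were tested on simulated data.

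The markers and lists were chosen with earlier results of these data known. Fold changes with SE are printed for markers at an unadjusted p under 0.05, others by range and, chosen after their values were seen, for the full deletion without WT b, and list genes are named where they passed 2-fold with an adjusted p below 0.05, at most 4 a list. Values without WT b of the deletion experiment for the lists were added after seeing the data. Exact copies of exon windows were sought in NCBIM37 with blastn 2.17.0. Intervals cover counting error only.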

Additional observations from a re-analysis of the deposited data

Results flagged for a closer look

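The effect of the full deletion minus that of the KO passed an adjusted p under 0.05 in edgeR and a 2-fold difference for 9 genes of the lists set beside the markers (0.300% of all genes) and for 0 of the 8 markers. Of the 7 that are targets of Dppa2 and Dppa4, those with the 4 smallest p are given here, and the others were Zscan4b, Zscan4d and Tcstv3. The difference on the log2 scale was -1.55 for Tex19.1 (adjusted p = 0.00996), -2.26 for Khdc3 (0.0197), -4.96 for Zscan4f (0.00649), -5.25 for Zscan4e (0.00808), -4.87 for Zscan4c (0.00860) and -5.05 for Zscan4a (0.0226), all adjusted by Benjamini-Hochberg in edgeR. In each the log2 fold change was above 0 in the KO and below 0 in the full deletion against the WT of the same experiment. The WT levels were low and differed between the KO and deletion experiments, whose counts were scaled separately. WT means were 1.13 and 5.12 CPM for Zscan4f, 0.394 and 1.07 for Zscan4e, 1.05 and 4.83 for Zscan4c, and 0.633 and 2.91 for Zscan4a. In the full deletion Zscan4f was at 2.649 and Zscan4c at 2.645 CPM, above WT of the KO experiment. The adjusted p from edgeR rose to 0.0777 for Tex19.1 and 0.215 for Khdc3 without KO a, and to between 0.0708 and 0.145 for the 4 Zscan4 genes without WT a of the KO experiment.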

How the results depend on the processing

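The number of markers called was 0 in each of the 7 comparisons under each alternative run for it, which came to 68 recounts with every library kept and 66 with 1 library left out. Of the markers' named log2 fold changes, 181 of 182 values under other settings and 183 of 183 with 1 library left out kept their direction and their side of the threshold. The exception was Dppa4 in the full deletion, -0.25, which became 0.0517 with summed counts as library size. Keeping the side of the threshold says little, since all but Dppa3 in the KO lay inside 2-fold in the main fit. The sizes moved: that of Dppa3 in the KO ran from 0.52 to 3.21 over the alternatives. That of Dppa2 in the full deletion ran from -0.85 to -0.48. With 1 library left out the range of the count was 0 to 0, although the number of genes called in the full deletion ran from 1, without any 1 of the deletion samples, to 362, without WT b (9 with all libraries), and in the KO from 0, without KO a or KO b, to 62, without WT b (3 with all libraries). DESeq2 called 463 and 76 genes, and 31 and 17 were called without a filter. DESeq2 gave Dppa2 in the full deletion a log2 fold change of -0.80 and an adjusted p of 1.7e-08. For the list genes, 26 of 98 values under other settings and 48 of 120 with 1 library left out changed sides of the threshold, and 0 reversed.

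In the full-deletion experiment the letters were not shown to pair samples, since the deviations of same-letter samples correlated at 0.064, 0.07 and -0.055 across genes, and not every sample correlated best with its own letter. With a replicate block the log2 fold change was -0.77 for Dppa2 (adjusted p = 0.0459 from edgeR) and 0.97 for Dppa3 (adjusted p = 0.0484 from edgeR), and 4 genes were called. With no replicate block in the KO experiment Dppa3 was at 2.01 and Tdgf1 at 0.24, and 1 gene was called. The closest gene to each marker was the same under other prior counts and at a mean of at least 1 CPM. Depth limits Dppa3 most, at 63 counts in WT a.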
